A study of Homo sapiens with 9 samples.

Results

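The 38 genes described here are the hypoxia and glycolysis genes, a list of named genes that were looked up by symbol in the deposited tables of expression and then by gene ID in the count files. They are 38 of the 57500 genes in those files. By role they comprise 3 transporters of glucose or lactate (SLC2A1, SLC2A3, SLC16A3), 16 glycolytic enzymes, 3 kinases that set glycolytic flux (PFKFB3, PFKFB4, PDK1), 13 targets of the hypoxia-inducible factors outside glycolysis, and the regulators HIF1A, EPAS1 and VHL. CA9 was matched by a reference table of gene names, the other 37 in the deposited tables. Levels are in CPM, read counts scaled to the size of the library with TMM factors. CA9 held at most 0.112 CPM and was too low to be tested, which left 37 of the 38 in each comparison.

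The study attached a reactive handle to a fluorogenic ligand so that it would bind its RNA aptamer covalently, and sequenced cellular RNA to ask whether transcripts without the aptamer are disturbed as well. The cells were HEK293T, a human cell line of embryonic kidney origin, and they received HBC530 at 10 µM, MsOc3HBC at 10 µM or only the vehicle DMSO over 5 h. HBC530 binds the Pepper aptamer without a covalent bond, and MsOc3HBC is the related ligand that reacts with it. Each treatment had 3 biological replicates, and their poly(A) RNA gave 9 libraries of the same line, whose labels name no transgene and no oxygen or glucose treatment.

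Hypoxia-inducible factors (HIFs) are transcription factors made of an oxygen-labile alpha subunit, such as HIF1A or EPAS1 (HIF-2 alpha), and a stable partner. When oxygen is present, prolyl hydroxylases of the EGLN family mark the alpha subunit for VHL, the ubiquitin ligase subunit that leads it to degradation. When the alpha subunit accumulates, it raises genes of glucose uptake and glycolysis together with genes outside glycolysis, among them VEGFA, ADM and the hydroxylase EGLN3. Glycolytic enzymes are also abundant in cultured cells with ample oxygen, where other transcription factors drive them.

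HIFs bind a short element whose core is ACGTG or GCGTG, and the promoters of members from both sides of the contrast are shown with the first of these. A promoter window of 250 bases before to 50 bases after an annotated start was given by RefSeq (GRCh38.p14) for 33 of the 38 members, 63 windows in all. It was not given for SLC2A3, VEGFA, BNIP3L, NDRG1 or VHL. In the stretches below, read 5′ to 3′ on the strand of the gene, capitals mark ACGTG, its reverse complement CACGT, or the palindrome CACGTG, which holds both and is also the E-box core read by other factors.
HK2 (chr2:74834961-74835041, plus strand): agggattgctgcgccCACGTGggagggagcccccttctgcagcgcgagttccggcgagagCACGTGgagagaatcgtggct
LDHA (chr11:18394461-18394509, plus strand): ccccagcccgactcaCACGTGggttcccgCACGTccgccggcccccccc
PGK1 (chrX:78104031-78104084, plus strand): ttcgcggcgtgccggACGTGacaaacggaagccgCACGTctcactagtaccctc
GAPDH (chr12:6535168-6535203, plus strand): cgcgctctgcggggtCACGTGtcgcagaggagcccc
PFKFB3 (chr10:6202809-6202844, plus strand): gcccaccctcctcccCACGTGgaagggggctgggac
PDK1 (chr2:172556058-172556101, plus strand): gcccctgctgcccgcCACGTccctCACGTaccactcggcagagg
ANKRD37 (chr4:185396664-185396717, plus strand): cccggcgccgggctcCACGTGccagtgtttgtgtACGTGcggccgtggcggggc
BNIP3 (chr10:131982037-131982072, minus strand): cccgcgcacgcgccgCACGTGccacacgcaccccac
EGLN1 (chr1:231422281-231422315, minus strand): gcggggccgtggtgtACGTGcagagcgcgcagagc
P4HA1 (chr10:73096933-73096967, minus strand): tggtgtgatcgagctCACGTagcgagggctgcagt
Searched on both strands, ACGTG was found in the windows of 20 of the 33 members (60.6%), beside 24.9% of all genes with a window. Members have more windows per gene than other genes, and by window the shares were 38.1% of 63 and 21.4% of 35116. By role it was found in 11 of 16 glycolytic enzymes, 2 of 3 kinases, 1 of 2 transporters and 6 of 10 non-glycolytic targets, so the letters occurred on both sides of the contrast. The palindrome CACGTG occurred in 24.2% of the members and 8.77% of all genes, and GCGTG in 60.6% and 40.6%. By window these were 12.7% against 7.26% for CACGTG and 41.3% against 36.5% for GCGTG. A member has several windows where it has several starts, and these shares are descriptions of the windows, not of binding. The 19 tested members with ACGTG had a median log2 fold change of -0.11 with HBC530 and -0.16 with MsOc3HBC, and the 13 tested members with a window but without ACGTG had -0.13 and -0.28, but the latter include members with GCGTG, such as SLC2A1, ADM, PFKFB4 and KDM3A.

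The libraries held between 28056929 and 62205366 counts on genes. Vimentin (VIM) stood at 232 to 290 CPM, and the neurofilament gene NEFM at 100.4 to 181 CPM, while markers of blood, hepatocytes, endothelium and basal epithelium held 0 to 6 counts. COL1A1, listed as a fibroblast marker, held 19.4 to 35.2 CPM in the 9 libraries, with overlap of the 3 treatments. Replicate 3 of both ligands lay apart from the other 7 libraries on the first principal component, which carried 37.3% of the variance. These were also the shallowest libraries, and their deviations from the mean of all 9 libraries followed gene length (Spearman's rho across genes -0.415 and -0.31). Fold changes against DMSO of the genes with values in every library, and counts by role, are therefore also given without them. Among the DMSO libraries, the deviations of replicate 1 and replicate 3 followed GC content (rho -0.414 and 0.348), with replicate 2 at 0.145. In replicates 1 to 3 this rho was 0.240, 0.240 and 0.243 with HBC530 and -0.115, -0.293 and -0.175 with MsOc3HBC. The GC trend thus had opposite sign in the libraries of the ligands. Its part in the results was not tested beyond the fits with that trend removed. SLC16A3, ANKRD37 and CA9 share exon sequence with a gene of higher count on the opposite strand (CSNK1D, UFSP2 and ARHGEF39), and the gene opposite PFKM (SENP1) held 31.6% of its count. The strand setting of the counting was not given in the sources used here, so the counts of these members are uncertain.

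In cells that received DMSO, the members spanned a wide range of levels. Per kilobase of exonic length, the glycolytic enzymes ENO1 (enolase, 1025 ± 65.5 CPM per kb, SD, n = 3), GAPDH (927 ± 35.2) and TPI1 (398 ± 14.8) led, followed by ALDOA (316 ± 35.2), PKM (288 ± 23.3), LDHA (252 ± 9.27), PGAM1 (204 ± 4.04) and PGK1 (113 ± 1.52). ENO1 and GAPDH lay within the sum of their SDs of each other, as did ALDOA and PKM. Among isoforms, HK1 (28.5 ± 0.571) and HK2 (26.2 ± 2.23) were alike within their spread, while ENO2 (1.85 ± 0.240) and ALDOC (6.19 ± 0.426) were far below ENO1 and ALDOA. SLC2A1, the GLUT1 glucose transporter, stood at 20.2 ± 0.197 CPM per kb, against 0.671 ± 0.0762 for SLC2A3, the GLUT3 transporter. Of the non-glycolytic targets, EGLN1 (16.2 ± 0.573) and P4HA1 (14.2 ± 1.56), the collagen prolyl hydroxylase subunit, were the highest, and ANKRD37 (1.02 ± 0.102) and CA9 (0.0393 ± 0.0106), the cell-surface carbonic anhydrase, the lowest. The HIF1A subunit (13.8 ± 1.84) was above EPAS1 (3.54 ± 0.108).

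**Figure D1:**
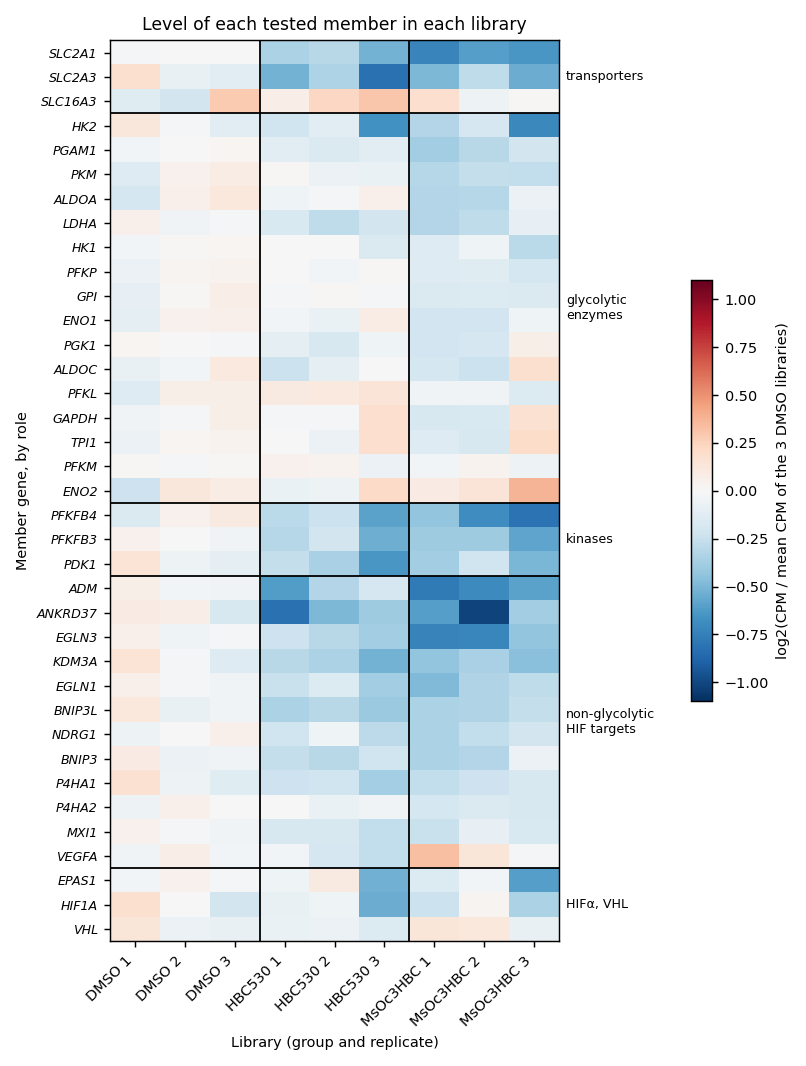
The level of each of the 37 tested members (y axis, by role) in each of the 9 libraries (x axis), as log2 of its CPM over the mean CPM of the 3 DMSO libraries (colour, blue for below and red for above). The kinases, SLC2A1, SLC2A3 and most non-glycolytic targets were below the DMSO mean in the 6 libraries with a ligand, while GAPDH, TPI1, PFKM and ENO2 were near or above it in several.

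With HBC530, the members lay mostly below DMSO, by amounts that did not pass the test. Of the 37 tested, 31 had a log2 fold change below 0, against 48.9% of all genes, and their median was -0.16, against 0.00 over all 17684 genes tested. None passed an adjusted p under 0.05 in the quasi-likelihood test of edgeR, adjusted by Benjamini-Hochberg over all genes tested, nor with DESeq2 or limma-voom, where 0.017% of all genes did so with edgeR. At an unadjusted p under 0.05, 16 members were lower and 0 higher, beside 2.38% of all genes lower and 2.7% higher. The 3 libraries with HBC530 lay wholly below the 3 with DMSO in 17 members and wholly above in 1 (PFKL), beside 6.64% and 7.17% of all genes. Without replicate 3 of HBC530, 17 members were lower at an unadjusted p under 0.05 and 0 passed after adjustment, beside 2.21% and 0.0331% of all genes, and 0 were higher, beside 2.69%. These are bulk libraries, in which fewer cells carrying a transcript and less of it per cell cannot be told apart.

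With MsOc3HBC, SLC2A1 and ADM fell, the other 35 tested members did not pass the adjusted test, and 33 of the 37 had a log2 fold change below 0, against 47.6% of all genes. Among all 17514 genes tested, 0.154% passed an adjusted p under 0.05 and 0.0742% passed as lower. The median of the members was -0.22, beside 0.01 over all genes. At an unadjusted p under 0.05, 16 members were lower and 0 higher, beside 4.78% and 6.12% of all genes. The 3 libraries with MsOc3HBC lay wholly below those with DMSO in 24 members and wholly above in 0, beside 8.96% and 9.35% of all genes. The count of 2 depended on the libraries and the tool. It was 0 without any 1 of the 3 DMSO replicates or without MsOc3HBC replicate 1, 1 without MsOc3HBC replicate 2 and 6 without MsOc3HBC replicate 3 (ADM, EGLN1, EGLN3, PFKFB3, PGAM1 and SLC2A1, beside 0.222% of all genes as lower), and 7 with DESeq2 (ADM, EGLN1, EGLN3, KDM3A, PFKFB3, PFKFB4 and SLC2A1, beside 0.365%). Without MsOc3HBC replicate 3, 26 members were lower and 1 higher at an unadjusted p under 0.05, beside 7.2% and 7.33% of all genes. The study's methods name a looser limit on the adjusted p, of 0.5, beside a log2 fold change larger than 1. It called 0 members in any comparison, where it called 0.0226% of all genes with HBC530, 0.56% with MsOc3HBC and 0.0115% between the ligands.

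**Figure D2:**
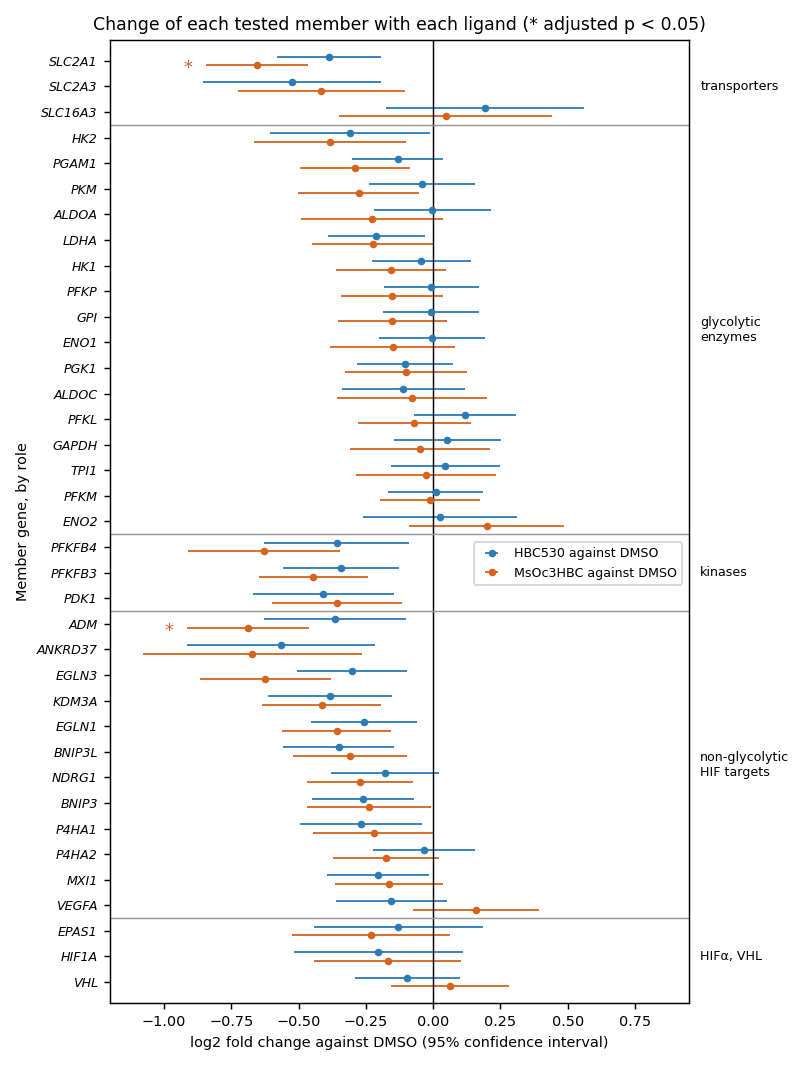
Log2 fold change of each tested member (y axis, by role) against DMSO with HBC530 (blue) and MsOc3HBC (orange), points with 95% confidence intervals from edgeR and an asterisk at an adjusted p under 0.05. SLC2A1 and ADM carry the only asterisks, both with MsOc3HBC, while the glycolytic enzymes gather near 0 with HBC530 and 15 of the 16 lie below it with MsOc3HBC.

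SLC2A1 (chr1:42925375-42959173, minus strand, GRCh38 as for all gene positions here) encodes GLUT1, the main basal glucose transporter of proliferating cells. It stood at 98.5, 100.2 and 100.2 CPM in replicates 1 to 3 with DMSO, at 78.4, 80.8 and 69.3 CPM with HBC530 and at 60.1, 65.6 and 63.8 CPM with MsOc3HBC. The 3 groups did not overlap, with DMSO highest and MsOc3HBC lowest. Against DMSO, the log2 fold change with MsOc3HBC was -0.65 (95% confidence interval -0.84 to -0.46), with an edgeR adjusted p of 0.0140. With HBC530 it was -0.39 (95% confidence interval -0.58 to -0.19), with an edgeR adjusted p of 0.741. Over the 16 alternative settings, its adjusted p with MsOc3HBC ranged from 1.36e-08 (DESeq2) to 0.169 (without DMSO replicate 2) and passed in 12. The log2 fold change without replicate 3 of the ligand was -0.32 with HBC530 and -0.66 with MsOc3HBC.

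SLC2A3, the GLUT3 transporter, was scarce, at 4.67, 3.91 and 3.82 CPM with DMSO. It stood at 2.88, 3.27 and 2.33 CPM with HBC530 and at 2.94, 3.40 and 2.84 CPM with MsOc3HBC. Both ligand groups lay below all 3 DMSO libraries and overlapped each other. The log2 fold changes were -0.52 (95% confidence interval -0.85 to -0.19) and -0.42 (95% confidence interval -0.73 to -0.11), with edgeR adjusted p of 0.751 and 0.351. SLC16A3, the lactate exporter MCT4, held 1.75, 1.67 and 2.34 CPM with DMSO, 2.02, 2.25 and 2.37 CPM with HBC530 and 2.18, 1.85 and 1.94 CPM with MsOc3HBC, and the groups overlapped. Its log2 fold changes were 0.19 (95% confidence interval -0.18 to 0.56) and 0.05 (95% confidence interval -0.35 to 0.44), with edgeR adjusted p of 0.757 and 0.941. With replicate 3 of the ligand left out, SLC2A3 was at -0.41 with HBC530 and -0.37 with MsOc3HBC, and SLC16A3 at 0.15 and 0.06.

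The 3 kinases set the pace of glycolysis without being steps of it. PFKFB3 and PFKFB4 make fructose 2,6-bisphosphate, the activator of phosphofructokinase, and PDK1 switches off pyruvate dehydrogenase. PFKFB3 (chr10:6144934-6235545, plus strand) held 108, 105 and 102 CPM with DMSO, 84.4, 91.1 and 72.5 CPM with HBC530 and 80.2, 80.2 and 70.2 CPM with MsOc3HBC. PFKFB4 (chr3:48517684-48562015, minus strand) held 10.4, 11.9 and 12.4 CPM with DMSO, 9.43, 9.82 and 7.67 CPM with HBC530 and 8.55, 7.19 and 6.57 CPM with MsOc3HBC. PDK1 (chr2:172555373-172608669, plus strand) held 34.9, 30.3 and 29.1 CPM with DMSO, 26.1, 24.5 and 20.1 CPM with HBC530 and 24.1, 27.0 and 22.1 CPM with MsOc3HBC. In each of the 3 genes, every library with a ligand lay below every DMSO library, beside 6.64% of all genes with HBC530 and 8.96% with MsOc3HBC. Replicate 3 was the lowest of its treatment with either ligand. With HBC530 their log2 fold changes were -0.34 (SE 0.10), -0.36 (SE 0.12) and -0.41 (SE 0.12), each with an edgeR adjusted p of 0.751. With MsOc3HBC they were -0.45 (SE 0.09), -0.63 (SE 0.13) and -0.36 (SE 0.11), with edgeR adjusted p of 0.120, 0.118 and 0.316. All 3 were lower at an unadjusted p under 0.05 with either ligand, beside 2.38% of all genes with HBC530 and 4.78% with MsOc3HBC. They were so also without replicate 3 of that ligand, beside 2.21% and 7.2% of all genes. PFKFB3 was then at -0.25 with HBC530 and -0.39 with MsOc3HBC, PFKFB4 at -0.26 and -0.56 and PDK1 at -0.30 and -0.29.

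The 16 glycolytic enzymes had a median log2 fold change of -0.01 with HBC530, 11 of them below 0, and of -0.15 with MsOc3HBC, 15 of them below 0. None passed the adjusted test in either comparison, and at an unadjusted p under 0.05 there were 2 with HBC530 (HK2 and LDHA) and 3 with MsOc3HBC (HK2, PGAM1 and PKM), all lower, beside 2.38% and 4.78% of all genes. Without replicate 3 of the ligand, these counts became 3 with HBC530 and 11 with MsOc3HBC, beside 2.21% and 7.2% of all genes, and PGAM1 passed the adjusted test with MsOc3HBC. Hexokinase HK2 (chr2:74833981-74893359, plus strand), which traps glucose in the cell, held 173, 157 and 146 CPM with DMSO, 137, 146 and 100.3 CPM with HBC530 and 127, 139 and 97.3 CPM with MsOc3HBC. Replicate 3 of each ligand was the lowest, and the MsOc3HBC libraries lay below DMSO while 1 HBC530 library overlapped it. The log2 fold changes of HK2 were -0.31 (95% confidence interval -0.61 to -0.01) and -0.38 (95% confidence interval -0.67 to -0.10), with edgeR adjusted p of 0.751 and 0.350. Without replicate 3 of the ligand they were -0.16 and -0.25.

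At the lower end of the pathway, PGAM1, the phosphoglycerate mutase, held 512, 526 and 532 CPM with DMSO, 483, 469 and 479.7 CPM with HBC530 and 401, 423 and 455 CPM with MsOc3HBC, 3 groups without overlap. PKM, the pyruvate kinase, held 2240.3, 2554 and 2609.9 CPM with DMSO, 2489, 2354 and 2352 CPM with HBC530 and 1983, 2064 and 2052 CPM with MsOc3HBC. Its MsOc3HBC libraries lay below the other 6, which overlapped. LDHA, the lactate dehydrogenase subunit that favours lactate, held 1627, 1519 and 1539.7 CPM with DMSO, 1395, 1288 and 1362 CPM with HBC530 and 1246, 1285 and 1471 CPM with MsOc3HBC, and both ligand groups lay below DMSO. With MsOc3HBC the log2 fold changes were -0.29 (SE 0.09), -0.28 (SE 0.10) and -0.22 (SE 0.10), with edgeR adjusted p of 0.324, 0.383 and 0.463. With HBC530 they were -0.13 (SE 0.08), -0.04 (SE 0.09) and -0.21 (SE 0.08), with edgeR adjusted p of 0.751, 0.900 and 0.751. The liver-type phosphofructokinase PFKL was the member that HBC530 left wholly above DMSO, at 287, 289 and 295 CPM against 244, 279 and 281 CPM. It held 261, 261 and 241 CPM with MsOc3HBC, and its log2 fold changes were 0.12 (95% confidence interval -0.07 to 0.31) and -0.07 (95% confidence interval -0.28 to 0.14), with edgeR adjusted p of 0.751 and 0.817. The value with MsOc3HBC became 0.09 when GC content and length trends were removed. PGAM1 without replicate 3 of the ligand was at -0.13 with HBC530 and -0.34 with MsOc3HBC, PKM at -0.02 and -0.29, LDHA at -0.21 and -0.30 and PFKL at 0.11 and -0.03.

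The remaining 11 enzymes, from HK1 and GPI at the entry of glucose to the enolases ENO1 and ENO2, had log2 fold changes between -0.11 (ALDOC) and 0.05 (GAPDH) with HBC530, and between -0.23 (ALDOA) and 0.20 (ENO2) with MsOc3HBC. GAPDH, often used as a reference transcript, had intervals of -0.15 to 0.25 and -0.31 to 0.21, and ENO1 of -0.20 to 0.19 and -0.38 to 0.08, which leave room for small changes in either direction. HK1, GPI, PFKP and the 3 enzymes PGAM1, PKM and LDHA had MsOc3HBC libraries that lay wholly below DMSO, as had HK2, 7 enzymes in all, beside 8.96% of all genes. With HBC530 the libraries of LDHA, PGAM1 and PGK1 lay wholly below DMSO and those of PFKL wholly above, beside 6.64% and 7.17% of all genes.

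**Figure D3:**
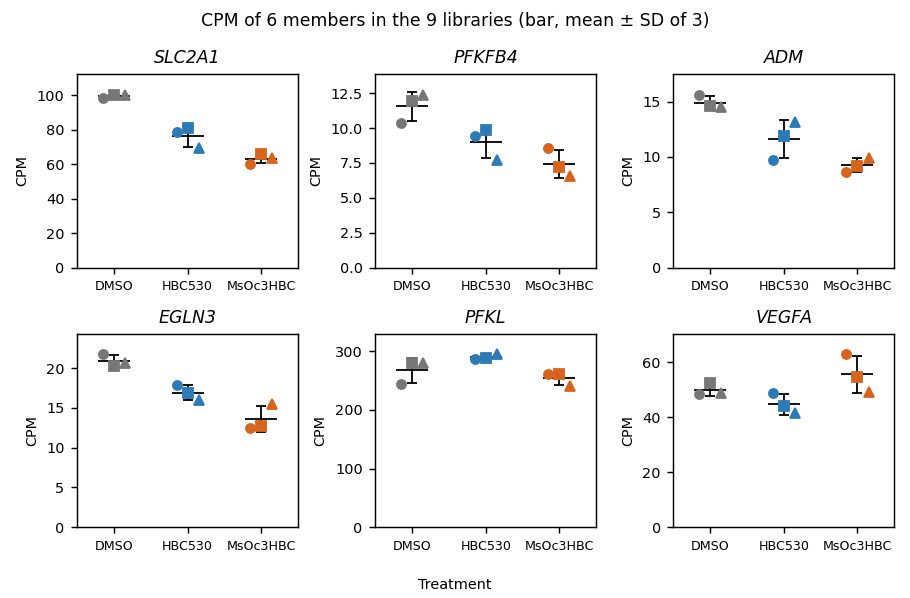
CPM (y axis, from 0) of SLC2A1, PFKFB4, ADM, EGLN3, PFKL and VEGFA in the 9 libraries by treatment (x axis; circle, square and triangle for replicates 1, 2 and 3; bars, mean ± SD, n = 3). SLC2A1, ADM and EGLN3 were highest with DMSO, PFKL was at 241 to 261 CPM with MsOc3HBC and 287 to 295 CPM with HBC530, and the mean of VEGFA was highest with MsOc3HBC.

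Of the 12 tested non-glycolytic HIF targets, all 12 lay below 0 with HBC530 (median -0.26) and 11 with MsOc3HBC (median -0.29). At an unadjusted p under 0.05, 9 were lower with HBC530 (ADM, ANKRD37, BNIP3, BNIP3L, EGLN1, EGLN3, KDM3A, MXI1 and P4HA1), beside 2.38% of all genes. With MsOc3HBC 8 were lower (ADM, ANKRD37, BNIP3, BNIP3L, EGLN1, EGLN3, KDM3A and NDRG1), of which ADM passed the adjusted test, beside 4.78% of all genes. Without replicate 3 of the ligand, 9 and 10 were lower at the unadjusted threshold, beside 2.21% and 7.2% of all genes, with medians of -0.24 and -0.33. ADM (chr11:10304680-10307397, plus strand), the vasodilator peptide adrenomedullin, held 15.6, 14.6 and 14.5 CPM with DMSO, 9.77, 11.9 and 13.1 CPM with HBC530 and 8.68, 9.20 and 9.89 CPM with MsOc3HBC. Every library with a ligand lay below the DMSO libraries, and 1 HBC530 library overlapped those with MsOc3HBC. Its log2 fold change was -0.69 (95% confidence interval -0.92 to -0.46) with MsOc3HBC, where the edgeR adjusted p was 0.0310, and -0.37 (95% confidence interval -0.63 to -0.10) with HBC530, where it was 0.751. Over the 16 alternative settings the adjusted p of ADM with MsOc3HBC ranged from 1.61e-05 (DESeq2) to 0.25 (without MsOc3HBC replicate 1) and passed in 10. ADM without replicate 3 of the ligand was at -0.45 with HBC530 and -0.73 with MsOc3HBC.

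EGLN3 (chr14:33924231-34462774, minus strand), the prolyl hydroxylase PHD3, held 21.7, 20.2 and 20.7 CPM with DMSO, 17.8, 16.9 and 16.0 CPM with HBC530 and 12.5, 12.7 and 15.5 CPM with MsOc3HBC, 3 groups without overlap. Its log2 fold changes were -0.30 (95% confidence interval -0.50 to -0.10) with HBC530 and -0.62 (95% confidence interval -0.87 to -0.38) with MsOc3HBC, with edgeR adjusted p of 0.751 and 0.0728. KDM3A, a histone H3 lysine 9 demethylase, held 50.4, 44.7 and 41.2 CPM with DMSO, 36.7, 35.8 and 31.7 CPM with HBC530 and 33.6, 35.4 and 32.9 CPM with MsOc3HBC. BNIP3L, a mitophagy receptor, held 31.1, 27.1 and 28.0 CPM with DMSO, 22.5, 23.2 and 21.7 CPM with HBC530 and 22.7, 22.8 and 24.0 CPM with MsOc3HBC. Both genes were lower than DMSO in all 6 ligand libraries, and their ligand groups overlapped. KDM3A had log2 fold changes of -0.38 (SE 0.10) and -0.41 (SE 0.10), and BNIP3L of -0.35 (SE 0.09) and -0.31 (SE 0.10), with edgeR adjusted p between 0.202 and 0.751. EGLN3 without replicate 3 of the ligand was at -0.26 with HBC530 and -0.72 with MsOc3HBC, KDM3A at -0.32 and -0.39 and BNIP3L at -0.32 and -0.34.

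The prolyl hydroxylase EGLN1 (PHD2) had log2 fold changes of -0.26 (95% confidence interval -0.45 to -0.06) and -0.36 (95% confidence interval -0.56 to -0.16), with edgeR adjusted p of 0.751 and 0.237, and passed with MsOc3HBC in DESeq2 and without MsOc3HBC replicate 3. ANKRD37 had log2 fold changes of -0.57 (95% confidence interval -0.91 to -0.22) and -0.67 (95% confidence interval -1.08 to -0.27) on 1.30 to 2.79 CPM, and its counts could include reads of UFSP2 on the opposite strand. The mitophagy receptor BNIP3, the stress-responsive NDRG1, the collagen prolyl hydroxylase subunits P4HA1 and P4HA2 and the MYC antagonist MXI1 lay between -0.27 and -0.03 with HBC530 and between -0.27 and -0.16 with MsOc3HBC. VEGFA (chr6:43770184-43786487, plus strand), the angiogenic growth factor, was the single tested target above 0 with MsOc3HBC. It held 48.4, 52.3 and 48.8 CPM with DMSO, 48.8, 44.0 and 41.3 CPM with HBC530 and 62.8, 54.6 and 49.2 CPM with MsOc3HBC, and both ligand groups overlapped DMSO. Its log2 fold changes were -0.16 (95% confidence interval -0.36 to 0.05) and 0.16 (95% confidence interval -0.07 to 0.39), with edgeR adjusted p of 0.751 and 0.599, and without replicate 3 of the ligand they were -0.10 and 0.24. CA9 held between 0 and 5 counts a library, and no fold was computed.

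The regulators themselves did not pass the test with either ligand, also at an unadjusted p under 0.05. HIF1A held 80.7, 71.2 and 61.7 CPM with DMSO, 67.3, 68.8 and 48.8 CPM with HBC530 and 60.4, 72.9 and 56.0 CPM with MsOc3HBC, with overlap of all groups. EPAS1 held 25.4, 26.8 and 25.5 CPM with DMSO, 25.0, 27.8 and 17.9 CPM with HBC530 and 23.4, 25.4 and 17.0 CPM with MsOc3HBC, the last narrowly below DMSO. VHL held 128, 112 and 111 CPM with DMSO, 111, 111 and 105 CPM with HBC530 and 128, 126 and 111 CPM with MsOc3HBC, with overlap of all groups. In HIF1A and EPAS1, replicate 3 was the lowest library of either ligand. The log2 fold changes of HIF1A were -0.20 (95% confidence interval -0.52 to 0.11) and -0.17 (95% confidence interval -0.44 to 0.11), those of EPAS1 -0.13 (95% confidence interval -0.44 to 0.18) and -0.23 (95% confidence interval -0.52 to 0.06), and those of VHL -0.10 (95% confidence interval -0.29 to 0.10) and 0.06 (95% confidence interval -0.16 to 0.28). Without replicate 3 of the ligand, HIF1A stood at -0.06 and -0.09, EPAS1 at 0.03 and -0.09 and VHL at -0.06 and 0.13. RNA levels say nothing of the alpha subunits' protein, which is the form that oxygen controls.

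The glycolytic genes and the non-glycolytic HIF targets are contrasted here for each ligand against the DMSO libraries that both comparisons share. With HBC530, the 19 glycolytic enzymes and transporters had a median log2 fold change of -0.01 and the 12 tested non-glycolytic targets of -0.26, a difference of -0.26. With MsOc3HBC the medians were -0.15 and -0.29, a difference of -0.14. By library, the median of the 16 enzymes against the DMSO mean was -0.06, 0.01 and 0.05 in replicates 1 to 3 with DMSO, -0.02, -0.05 and -0.01 with HBC530 and -0.18, -0.18 and -0.07 with MsOc3HBC. That of the 12 targets was 0.06, -0.02 and -0.04 with DMSO, -0.24, -0.26 and -0.33 with HBC530 and -0.35, -0.32 and -0.23 with MsOc3HBC. The target medians of all 6 ligand libraries thus lay below those with DMSO. The enzyme medians with HBC530 lay inside the range of DMSO, and those with MsOc3HBC below it. Replicate 3 of MsOc3HBC did so narrowly, at -0.073 against -0.064 in DMSO replicate 1. The median log2 fold change of the 16 enzymes was -0.01 with HBC530 and -0.15 with MsOc3HBC. With trends of GC content and length removed, these became -0.04 and -0.10. The 3 transporters alone had medians of -0.39 with HBC530 and -0.42 with MsOc3HBC, and the 3 kinases of -0.36 and -0.45. Left without any 1 library, the difference lay between -0.31 and -0.14 with HBC530, its smallest size being without DMSO replicate 1, whose deviations followed GC content, and between -0.19 and -0.09 with MsOc3HBC. With trends of GC content and length removed, it was -0.19 with HBC530 and -0.24 with MsOc3HBC. The enzymes and transporters had a median GC content of 54.7% and the 13 targets of 47.2%. No p is given for this contrast, because the members were chosen with results known.

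**Figure D4:**
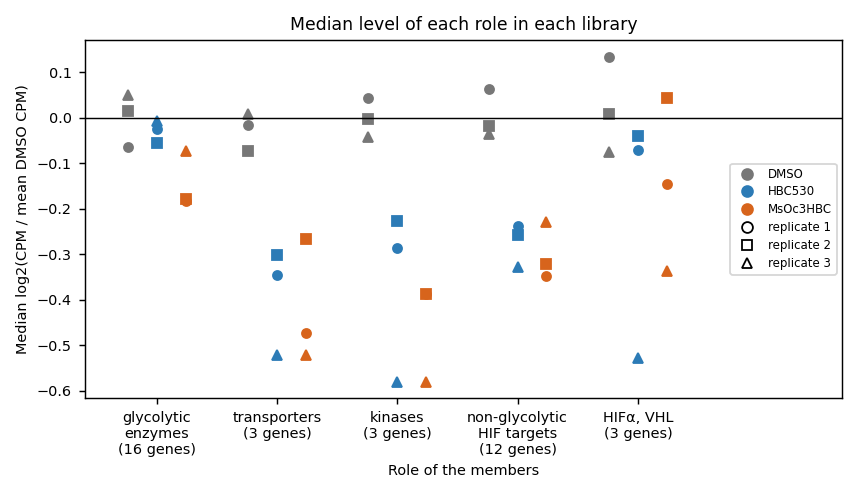
Median over the genes of each role (x axis) of log2 CPM relative to the mean of the DMSO libraries (y axis), 1 point per library, coloured by treatment and shaped by replicate. The 12 non-glycolytic targets, the transporters and the kinases were lower in all 6 ligand libraries than in any DMSO library, while the 16 glycolytic enzymes with HBC530 lay within the DMSO range.

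HBC530 and MsOc3HBC were compared directly at the same dose and time, as 1 pair of compounds. Without a replicate term, 0 of the 37 members and 0% of all 17397 genes passed an adjusted p under 0.05 with edgeR, and 0 members with DESeq2 or limma-voom. At an unadjusted p under 0.05, 5 members were lower with MsOc3HBC (SLC2A1, PFKL, PKM, ADM and EGLN3) and VEGFA was higher, beside 4.22% and 3.1% of all genes. The log2 fold change was below 0 in 25 of the 37 members, beside 46.2% of all genes. The libraries did not overlap in 9 lower members and 1 higher one, beside 8.5% and 6.85% of all genes. Libraries of the 2 ligands with the same replicate number deviated together. For replicates 1 and 2, pairing by number cannot be told from the departure of replicate 3 that both ligands share. A fit with the replicate number as a block is therefore given beside the fit without a block. With that block 8 members passed an adjusted p under 0.05 as lower with MsOc3HBC (ADM, ALDOA, EGLN3, ENO1, PFKL, PGAM1, PKM and SLC2A1) and VEGFA as higher, beside 6.9% and 4.54% of all genes.

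With the block, the log2 difference of SLC2A1 was -0.27 (95% confidence interval -0.39 to -0.15, edgeR adjusted p 0.0108), and without it -0.27 (-0.48 to -0.06, 0.643). PKM, the pyruvate kinase, differed by -0.24 (-0.33 to -0.14, edgeR adjusted p 0.00676), PFKL by -0.19 (-0.29 to -0.08, 0.0240) and EGLN3 by -0.34 (-0.52 to -0.15, 0.0227). VEGFA was the only member that passed the adjusted test as higher, by 0.31 (0.20 to 0.43, edgeR adjusted p 0.00433). In all 3 pairs of equal replicate number, MsOc3HBC was below HBC530 for SLC2A1, PKM, PFKL, ADM and EGLN3 and above it for VEGFA. The libraries of the ligands had GC trends of opposite sign. With GC content and length trends removed as well, only EGLN3 and VEGFA of the members passed (-0.38 and 0.36), beside 1.14% of all genes lower and 0.702% higher. Without replicate 3 of both ligands, 7 members passed as lower (ALDOA, EGLN1, EGLN3, ENO1, PGAM1, PKM and SLC2A1) and 2 as higher (VEGFA and VHL), beside 6% and 3.16% of all genes.

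Where the adjusted test did not tell the ligands apart, the intervals show how much difference the data allow. Without the block, the 95% confidence interval of MsOc3HBC against HBC530 was -0.25 to 0.22 for LDHA, -0.24 to 0.25 for PGK1, -0.40 to 0.20 for GAPDH, -0.47 to 0.32 for HK2 and -0.24 to 0.34 for PDK1. It was -0.24 to 0.18 for KDM3A, -0.15 to 0.24 for BNIP3L and -0.32 to 0.39 for HIF1A. With the block, the intervals were -0.13 to 0.10 for LDHA, -0.11 to 0.11 for PGK1, -0.20 to -0.01 for GAPDH, -0.17 to 0.03 for HK2 and -0.10 to 0.20 for PDK1. They were -0.16 to 0.09 for KDM3A, -0.10 to 0.18 for BNIP3L and -0.10 to 0.17 for HIF1A. The GAPDH interval with the block thus lay wholly on the negative side, though GAPDH did not pass the adjusted test. The median of the 19 glycolytic enzymes and transporters was -0.11 and that of the 12 tested targets -0.06. The targets minus the glycolytic genes thus gave 0.05, which became -0.05 when GC content and length trends were removed.

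**Figure D5:**
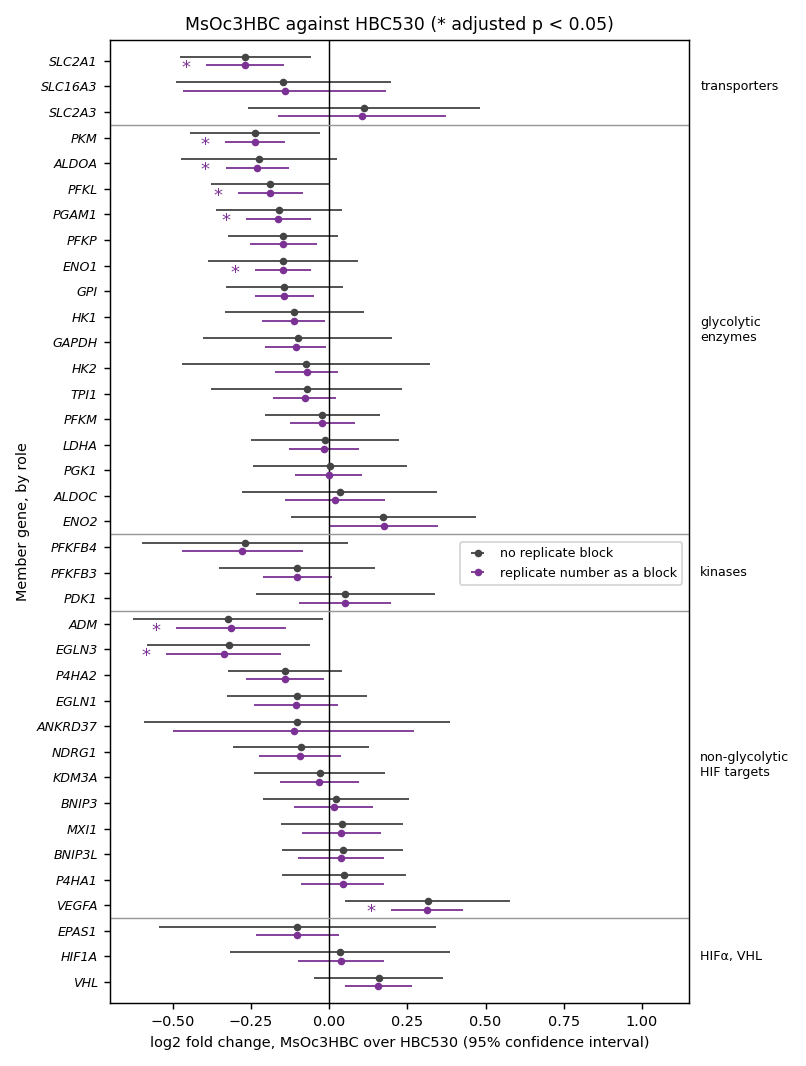
Log2 fold change of each tested member (y axis, by role) with MsOc3HBC over HBC530 (x axis), without (grey) and with (purple) the replicate number as a block, points with 95% confidence intervals and an asterisk at an edgeR adjusted p under 0.05. The intervals narrow with the block, where 8 members pass as lower and VEGFA as higher.

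Ratios of related genes within a library do not depend on the scaling between libraries. With 3 libraries against 3, the smallest p that the exact permutation test allows is 0.1, so none of the 10 ratios could pass 0.05, and the smallest adjusted value was 0.25. The log2 ratio of LDHA to LDHB, the subunits of lactate dehydrogenase, averaged -0.91 with DMSO, -1.14 with HBC530 and -1.26 with MsOc3HBC, and either ligand lay wholly below DMSO (exact permutation p = 0.1 each, two-sided). That of ENO2 to ENO1 averaged -9.12 with DMSO, -9.08 with HBC530 and -8.76 with MsOc3HBC, where the last lay wholly above the other 6 libraries. EGLN3 to EGLN1 averaged -2.51, -2.56 and -2.78, with MsOc3HBC wholly below DMSO. P4HA1 to P4HA2 averaged 1.90, 1.67 and 1.86, with HBC530 wholly below both other groups. SLC2A1 to SLC2A3 averaged 4.92, 5.08 and 4.69, with MsOc3HBC wholly below HBC530. HK2 to HK1 averaged -0.13, -0.41 and -0.36, with MsOc3HBC wholly but narrowly below DMSO. ALDOC to ALDOA averaged -5.67, -5.78 and -5.53, with MsOc3HBC wholly above HBC530. For PFKFB4 to PFKFB3, BNIP3 to BNIP3L and EPAS1 to HIF1A the groups overlapped in every comparison.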

How the data were processed

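RNA of HEK293T cells treated for 5 h with 10 µM HBC530, 10 µM MsOc3HBC or DMSO was sequenced in 9 libraries, 3 biological replicates per treatment, grouped by their labels. Per the submitters' processing notes, the authors used Trimmomatic 0.36, STAR 2.5.2b, featureCounts of Subread 1.5.2 and DESeq2 on GRCh38; the annotation release and strand setting are not given in the sources used here. The deposited raw counts per gene (28056929 to 62205366 per library) were analysed. The deposited tables of signal (counts divided by 1 constant per library) served for gene symbols, and their columns of log2 fold change and p-value, which hold the authors' own comparisons, were not used.

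Each comparison used edgeR 4.0.16 (R 4.3.3) on its 6 libraries, with filterByExpr, TMM factors, the quasi-likelihood test and Benjamini-Hochberg adjustment over all genes tested. A member is called at an adjusted p under 0.05. Confidence intervals are 95% intervals of the log2 fold change. CPM used TMM factors over the 9 libraries, and levels were compared between genes only per kilobase of exonic length. Ratios used exact permutation tests, two-sided (scipy 1.17.1). Scripts were tested on simulated data. Alternatives were RLE and upper-quartile factors, DESeq2 1.42.0, limma 3.58.1 (voom), no filter, a minimum of 10 counts throughout, 1 fit over the 9 libraries, a replicate block, removal of GC content and length trends (splines with 5 degrees of freedom), and leaving out each library. Libraries of HBC530 and MsOc3HBC with the same replicate number deviated together over genes (r = 0.167, 0.368 and 0.433, each above the limit of 0.1). MsOc3HBC replicate 2 also did so with HBC530 replicate 1 (r = 0.296). MsOc3HBC replicate 3 had r of -0.330 and -0.285 with HBC530 replicates 1 and 2, and HBC530 replicate 3 had -0.135 and -0.472 with MsOc3HBC replicates 1 and 2. Deviations were taken from the mean of the 3 libraries of a treatment. A departure shared by replicate 3 of both ligands alone therefore raises r among replicates 1 and 2. These r thus cannot show that replicates 1 and 2 pair by number. Libraries of DMSO and a ligand did not deviate together in every pair of equal number, and the labels do not say what a number shares.

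The members and lists were chosen with earlier results of these data known. Values in every library are given for members with an adjusted p under 0.05 in any comparison, for the 2 members of smallest p per role and comparison, and for HIF1A, EPAS1 and VHL. Of the 76 other pathway genes, those with an adjusted p under 0.05 and the 2 of smallest p in each direction per comparison are named. Other genes are named as the extremes of a range or as members of a count.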

Additional observations from a re-analysis of the deposited data

Results flagged for a closer look

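Of the members and named pathway genes, 3 had every HBC530 library on one side of the DMSO mean and every MsOc3HBC library on the other. PFKL averaged 268 CPM with DMSO, 291 with HBC530 and 255 with MsOc3HBC, so that MsOc3HBC minus HBC530 was -35.9 CPM. DDIT4, a stress-induced inhibitor of mTOR signalling, averaged 81.4 CPM with DMSO, 65.0 with HBC530 and 95.4 with MsOc3HBC, a difference of 30.4 CPM. WSB1, a ubiquitin ligase subunit, averaged 63.5 CPM with DMSO, 61.3 with HBC530 and 72.0 with MsOc3HBC, a difference of 10.6 CPM. The opposition of the 2 effects against the shared DMSO libraries was not tested. With GC content and length trends removed, the log2 fold change against DMSO turned for PFKL with MsOc3HBC, from -0.07 to 0.09, and for WSB1 with HBC530, from -0.05 to 0.06. The exons of PFKL hold 64.6% GC, those of DDIT4 58.9% and those of WSB1 38.7%. The libraries of the ligands had GC trends of opposite sign, whose part in these changes was not tested beyond these fits. The ligands themselves differed in these genes by log2 -0.19, 0.56 and 0.23, with edgeR adjusted p of 0.678, 0.643 and 0.643 without the replicate block and 0.0240, 0.000254 and 0.0151 with it. Of 17 alternative settings, PFKL and WSB1 passed in 1 each, that block alone, and DDIT4 in 5. The genes were picked because the ligand groups lay on opposite sides of the DMSO mean, so these p are not independent of the choice.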

How the results depend on the processing

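SLC2A3, SLC16A3 and ANKRD37 held under 5 CPM in every library and are the tested members that depth limits most. With 3 libraries per treatment the intervals rest on few degrees of freedom. The median contrasts did not move beyond the spread between replicates in 152 of 162 recomputed values, and of the 1175 recomputed log2 fold changes of single named genes 1069 did not change direction or side of the threshold, 57 passed it newly, 15 lost it and 34 changed sign. The cause of these changes was not tested.

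With MsOc3HBC against DMSO, the number of members passing an adjusted p under 0.05 was 2 and became 7 with DESeq2, 7 with no filter on low counts, 5 with the replicate block, 4 with the replicate block and GC content and length trends removed, and 0 to 6 when 1 library was left out. Between the ligands it was 0 and became 9 with the replicate block, 2 with the block and GC content and length trends removed, and 0 to 9 when libraries were left out, 9 being without replicate 3 of both. With HBC530 against DMSO it was 0 and stayed 0 with the replicate block and in every other fit run. Over all genes, the number passing with HBC530 was 3 and became 24 with DESeq2, 52 with no filter, 16 with the replicate block and 10 with GC content and length trends removed. With MsOc3HBC it was 27 and became 149, 250, 149 and 62 in the same order, and 6 to 76 when 1 library was left out. Between the ligands it was 0 and became 61 with DESeq2, 1990 with the replicate block, 321 with the block and GC content and length trends removed, and 1635 without replicate 3 of both.

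The median log2 fold change of the glycolytic enzymes and transporters with HBC530 was -0.076 as a mean over genes and -0.0757 to 0.0136 when 1 library was left out, where the difference, targets minus glycolytic genes, ran from -0.306 to -0.144. That difference with MsOc3HBC was -0.235 with GC content and length trends removed and -0.238 with the replicate block as well. Between the ligands the glycolytic median was -0.0474 and -0.0458 in these fits and the difference -0.0521 and -0.0575, against 0.0139 to 0.117 when libraries were left out. Leaving out 1 library turned the sign of 8 ratio differences. These were HK2 to HK1 (-0.0679 to 0.127) and BNIP3 to BNIP3L (-0.0894 to 0.0203) between the ligands, PFKFB4 to PFKFB3 (-0.116 to 0.0545), ENO2 to ENO1 (-0.0166 to 0.0858), EGLN3 to EGLN1 (-0.0769 to 0.011) and EPAS1 to HIF1A (-0.0512 to 0.143) with HBC530, and P4HA1 to P4HA2 (-0.103 to 0.0717) and EPAS1 to HIF1A (-0.193 to 0.00441) with MsOc3HBC. It also turned the log2 fold change of ELOB (-0.0128 to 0.303), EPAS1 (-0.265 to 0.0344) and PKM (-0.106 to 0.00305) with HBC530, and of SLC16A3 (-0.0488 to 0.226) with MsOc3HBC. Between the ligands it turned that of EPAS1 (-0.259 to 0.0474), HIF1A (-0.105 to 0.12), HK2 (-0.219 to 0.0635), KDM3A (-0.0896 to 0.00854), LDHA (-0.0904 to 0.0363) and PDK1 (-0.0482 to 0.128). That of BNIP3L (-0.0158 to 0.0658) turned only without replicate 3 of both ligands, a fit that these ranges of log2 fold changes between the ligands include. Removing GC content and length trends, without and with the replicate block, turned PKM (0.00277 and 0.00202) and WSB1 (0.0568 and 0.0545) with HBC530 and PFKL (0.0919 and 0.0875) with MsOc3HBC. Between the ligands it turned HIF1A (-0.0862 and -0.0852), BNIP3L (-0.0649 and -0.0674), PDK1 (-0.0804 and -0.0844) and SLC16A3 (0.0238 and 0.0325).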

Other observations

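The pathway genes outside the 38 members were 76, of which 60 were tested in each comparison with DMSO. Among the 32 tested of 37 further HIF targets, 27 lay below 0 with HBC530 (median -0.14) and 23 with MsOc3HBC (median -0.12), where 48.9% and 47.6% of all genes did. At an unadjusted p under 0.05, 11 were lower with HBC530 and 13 with MsOc3HBC, beside 2.38% and 4.78% of all genes. Only DDIT4 was higher with MsOc3HBC, beside 6.12% of all genes. With MsOc3HBC, BHLHE40 and CXCR4 fell in edgeR's quasi-likelihood test. BHLHE40, a circadian and hypoxia-responsive repressor, held 62.6, 56.8 and 55.9 CPM with DMSO, 31.1, 37.8 and 33.7 CPM with HBC530 and 30.1, 26.0 and 26.6 CPM with MsOc3HBC. Its log2 fold change was -1.08 (95% confidence interval -1.30 to -0.86) with MsOc3HBC (edgeR adjusted p 0.00146) and -0.77 (95% confidence interval -0.99 to -0.55) with HBC530 (edgeR adjusted p 0.0527), and 16 of 16 alternative settings called it with MsOc3HBC and 9 of 16 with HBC530. CXCR4, the chemokine receptor, held 3.95, 4.37 and 3.95 CPM with DMSO, 2.76, 3.06 and 3.09 CPM with HBC530 and 2.27, 1.99 and 2.20 CPM with MsOc3HBC, with a log2 fold change of -0.93 (95% confidence interval -1.23 to -0.63) with MsOc3HBC (edgeR adjusted p 0.0267), called in 11 of 16 alternative settings, of which 1 of the 6 that leave out a library. STC1, a secreted glycoprotein, was at 0.0952 to 0.277 CPM with HBC530 and 0.11 to 0.179 CPM with MsOc3HBC against 0.433 to 0.502 CPM with DMSO, and its log2 fold changes of -1.43 and -1.78 did not pass an adjusted p under 0.05 (edgeR adjusted p 0.751 and 0.0914). The looser limit of the study's methods called 2 further HIF targets with MsOc3HBC, BHLHE40 and STC1, and 0 with HBC530. Among all genes it called 0.56% and 0.0226%. HMOX1, the heme oxygenase, and ELOB, the elongin B subunit of the VHL complex, had 0.11 and 0.20 with HBC530, with edgeR adjusted p of 0.751 each.

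Of the 28 further glycolysis genes 18 were tested, of which 11 lay below 0 with either ligand and 0 passed an unadjusted p under 0.05 against DMSO, with medians of -0.04 and -0.01. Of the 11 further HIF pathway proteins 10 were tested, of which 0 passed it, with medians of 0.00 and -0.06. Between the ligands, CITED2, a HIF-inhibiting cofactor, and PLOD1, a collagen lysyl hydroxylase, had log2 differences of -0.35 (-0.55 to -0.15) and -0.31 (-0.49 to -0.13), and RORA, a nuclear receptor, of 0.59 (0.25 to 0.94), with edgeR adjusted p of 0.643 each without the replicate block. With the block the edgeR adjusted p were 0.00259, 0.00289 and 0.0137.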
